A study of Mus musculus with 2 samples.

Results

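The genes described here are 10 targets and feedback regulators of nuclear factor kappa B (NF-kB), out of 33696 genes listed with the counts. They were chosen by name, with earlier results of these data known. They are the NF-kB subunit genes Nfkb1 (ENSMUSG00000028163), Nfkb2 (ENSMUSG00000025225) and Relb (ENSMUSG00000002983), the feedback regulators Nfkbia (ENSMUSG00000021025), Tnfaip3 (ENSMUSG00000019850) and Bcl3 (ENSMUSG00000053175), the survival genes Birc3 (ENSMUSG00000032000) and Ier3 (ENSMUSG00000003541), and the target genes Tnfaip2 (ENSMUSG00000021281) and Ptgs2 (ENSMUSG00000032487). Each was measured in 5 cell classes, set by marker gates, of 2 droplet-based single-cell RNA-sequencing libraries.

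Both libraries came from tumors of MMTV-PyMT sublines, a model in which the mouse mammary tumor virus promoter drives the polyoma middle T oncogene. The sublines were transplanted into the mammary fat pad of female C57BL/6 mice aged 6 to 8 weeks, and no further allele or treatment is given for either. PyMT-M stood for macrophage-enriched tumors (High-MAC) and PyMT-N for tumors without that enrichment (Low-MAC). In each group 3 tumors were dissociated separately, depleted of CD45+ and Ter119+ cells, enriched with CD31 and CD144 beads, sorted for CD31+ CD144+ cells and pooled into 1 library. A condition thus had 1 library, no difference between conditions was tested, and every interval below covers counting error only. The subline, the pool of tumors and the droplet run cannot be told apart.

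NF-kB is a family of paired transcription factors that inhibitors hold in the cytoplasm until a receptor for tumor necrosis factor, interleukin-1 or microbial products signals. The IkB kinase then marks the inhibitor for destruction, and the freed subunits enter the nucleus and switch on inflammatory, adhesion and survival genes. Among the first targets are genes for its own inhibitors, which close a negative feedback loop, and endothelial cells are a classical site of this response, since they recruit leukocytes through it.

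Several of these genes carry sequence matches to the kB consensus close to their start. The sequences are shown because the group was chosen by name as NF-kB targets and regulators. Given that choice, the share of genes with a match is a description and not a test. RefSeq (GRCm38.p6) gave promoter windows for 8 of the 10 genes, at 11 start sites, and Nfkb1 and Relb are named only. The 250 bases before each start were searched on both strands for the kB consensus, which is 10 letters long and is given here by name. A match was found in 5 genes, Nfkbia, Nfkb2, Tnfaip3, Ier3 and Tnfaip2, against 7.25% of 32851 windows and 8.23% of 27025 genes over the whole table. Matches to the consensus on either strand are in capitals, and overlapping matches run together. The windows are chr12:55492648-55492897 on the minus strand for Nfkbia, chr19:46304487-46304736 on the plus strand for the first start of Nfkb2, chr10:19015411-19015660 on the minus strand for the first start of Tnfaip3, chr17:35821463-35821712 on the plus strand for Ier3, and chr1:150099781-150100030 on the plus strand for Ptgs2.
Nfkbia: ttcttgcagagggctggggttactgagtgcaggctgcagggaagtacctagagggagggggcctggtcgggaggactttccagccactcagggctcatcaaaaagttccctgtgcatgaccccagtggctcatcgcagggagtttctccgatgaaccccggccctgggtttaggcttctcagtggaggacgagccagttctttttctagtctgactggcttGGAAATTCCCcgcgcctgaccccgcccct
Nfkb2: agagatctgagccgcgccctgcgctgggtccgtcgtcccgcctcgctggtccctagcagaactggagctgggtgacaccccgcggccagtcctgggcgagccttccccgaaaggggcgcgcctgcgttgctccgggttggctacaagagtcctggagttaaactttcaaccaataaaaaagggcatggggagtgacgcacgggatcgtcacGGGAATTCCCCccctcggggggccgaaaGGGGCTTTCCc
Tnfaip3: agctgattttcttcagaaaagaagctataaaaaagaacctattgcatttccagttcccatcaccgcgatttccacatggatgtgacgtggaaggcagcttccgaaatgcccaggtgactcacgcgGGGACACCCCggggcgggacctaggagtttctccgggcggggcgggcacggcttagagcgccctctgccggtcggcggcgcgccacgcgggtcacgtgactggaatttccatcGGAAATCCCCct
Ier3: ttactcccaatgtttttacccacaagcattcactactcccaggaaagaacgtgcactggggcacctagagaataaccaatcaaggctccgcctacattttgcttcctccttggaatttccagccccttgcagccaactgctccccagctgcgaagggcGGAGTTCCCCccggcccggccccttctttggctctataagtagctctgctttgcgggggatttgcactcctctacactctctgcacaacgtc
Ptgs2: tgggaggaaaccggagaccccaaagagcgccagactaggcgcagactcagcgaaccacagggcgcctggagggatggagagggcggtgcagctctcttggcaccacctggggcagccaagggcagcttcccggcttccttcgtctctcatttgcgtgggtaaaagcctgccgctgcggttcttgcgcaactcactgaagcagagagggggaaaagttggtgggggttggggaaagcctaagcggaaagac
The Nfkbia match began 29 bases before the start. In Nfkb2 overlapping matches began 39 and 38 bases before the start and another 11 bases before it. Those of Tnfaip3 began 125 and 12 bases before its start, and that of Ier3 began 92 bases before. No match lay in the windows of Bcl3, Birc3 or Ptgs2, which says only that these letters were not in those 250 bases. A match is a description of sequence, and binding was not measured.

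The deposited libraries held 141067264 UMIs over 7821 barcodes in PyMT-M and 116150425 UMIs over 6974 barcodes in PyMT-N. With at least 200 genes and at most 10% mitochondrial UMIs, 6719 and 5607 cells were kept. Between the libraries, 12 kept barcodes were shared. The blood endothelial class held 588 cells in PyMT-M and 1065 in PyMT-N, the lymphatic class 20 and 207, the tumor-gated class 4902 and 3306, the fibroblast class 58 and 63, and the Ptprc+ class 488 and 357. Depth differed, with a median of 5206 UMIs per blood endothelial cell in PyMT-M and 12696 in PyMT-N. Tumor-gated cells had medians of 23715.5 and 20757.5 UMIs. The check markers of blood endothelium (Cdh5, Esam, Cldn5, Tek, Egfl7 and Tie1) summed there to 4261 CPM (counts scaled to a total of 1000000 UMIs) in PyMT-M and 4318 CPM in PyMT-N. The tumor gate rested on Krt8, Krt18 and Rhox5. Of 6 other epithelial check genes, Epcam, Cdh1, Krt7, Krt14 and Krt19 were nearly absent from it. None of these exceeded 3.52 CPM in PyMT-M or 0.48 CPM in PyMT-N. The remaining gene, Wfdc2, stood at 217 CPM in PyMT-M and 32.4 CPM in PyMT-N. The fibroblast check genes (Col1a1, Col1a2, Dcn, Lum and Pdgfra) summed to 60.65 CPM in PyMT-M and 239.6 CPM in PyMT-N tumor-gated cells. The class is therefore called tumor-gated. It made up 73.0% of kept cells in PyMT-M and 59.0% in PyMT-N, although the sort was for CD31+ CD144+ cells. The tumor gate required 0 UMIs of Pecam1 and Flt1. Ptprc+ cells likewise remained after depletion of CD45+ cells. How well the tumor-gated and Ptprc+ cells left by this sort represent those of the tumors was not tested. Some cells met more than 1 gate, and in PyMT-N 56 blood endothelial cells were also Ptprc+, against 6 in PyMT-M.

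Within blood endothelial cells the 10 genes differed little between the libraries. None of the 9 members with at least 20 UMIs over both libraries was 2-fold higher or lower in PyMT-M, where 5.33% of 13193 genes were 2-fold higher and 8.93% were 2-fold lower. Their median log2 ratio, PyMT-M over PyMT-N, was -0.26, against -0.02 over all genes tested. Ier3 was the member with the widest gap, higher in PyMT-M, while Nfkbia, Nfkb1, Bcl3 and Birc3 were lower there by margins outside counting error.

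**Figure D1:**
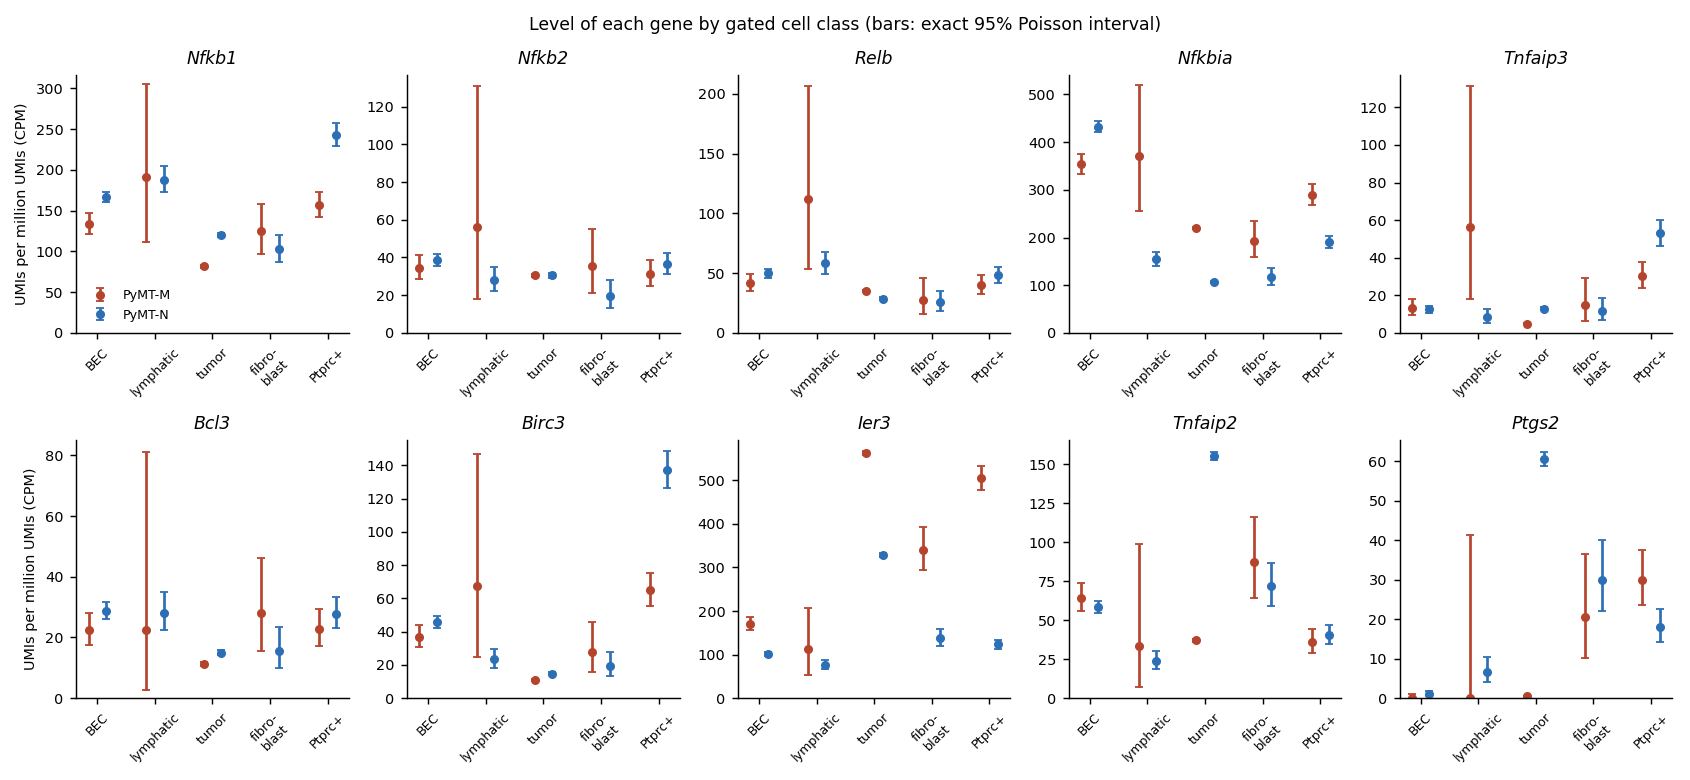
Level of each gene, in CPM of the summed class (linear vertical axes starting at 0, a separate scale for each gene), by gated class (BEC, blood endothelial cells) in PyMT-M (red) and PyMT-N (blue). Points are sums over cells of 1 library and bars are exact 95% Poisson intervals. In PyMT-N tumor-gated cells Ptgs2 reached 60.6 CPM, against 0.47 CPM in PyMT-M.

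Of the subunit genes, Nfkb1 encodes the precursor of p50, the partner that RelA most often pairs with. Its blood endothelial level was 134 CPM in PyMT-M (95% interval 122 to 147) and 167 CPM in PyMT-N (160.2 to 173), and the log2 ratio was -0.31 (-0.46 to -0.17). Tumor-gated cells held 81.5 and 120.5 CPM, a log2 ratio of -0.56 (-0.60 to -0.52). Nfkb1 was thus lower in PyMT-M in both of the largest classes, and also in Ptprc+ cells, where its levels were 157 and 243 CPM. Fibroblasts (125 and 102.5 CPM) and lymphatic cells (191 and 188 CPM) had intervals that overlapped between the libraries. In PyMT-N the gene was highest in Ptprc+ cells, and their interval did not reach that of lymphatic cells, the next in order. In PyMT-M lymphatic and Ptprc+ cells did not differ beyond counting error.

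Nfkb2 and Relb encode p100/p52 and RelB, the subunits of the non-canonical arm of the pathway. Blood endothelial Nfkb2 stood at 34.6 CPM in PyMT-M and 38.6 CPM in PyMT-N, and the interval of the log2 ratio (-0.46 to 0.13) spanned 0. Its tumor-gated levels, 30.5 CPM in each library, gave a log2 interval of only -0.08 to 0.07. In no class did the interval of the library ratio leave 0. Neighbouring classes overlapped throughout the order, but the ends of the order differed in PyMT-N, where blood endothelial cells (35.5 to 41.9 CPM) lay above fibroblasts (19.6 CPM, 13.2 to 28.0) and above tumor-gated cells (log2 ratio 0.34, 0.20 to 0.47). Relb measured 41.5 CPM in PyMT-M blood endothelium and 49.8 CPM in PyMT-N, and the interval of the log2 ratio (-0.26, -0.54 to 0.002) included 0. In tumor-gated cells Relb was higher in PyMT-M, with 35.1 and 28.7 CPM and a log2 ratio of 0.29 (0.22 to 0.37).

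Nfkbia encodes IkB-alpha, the inhibitor that keeps NF-kB in the cytoplasm. Blood endothelial cells held 354 CPM in PyMT-M (334 to 375) and 433 CPM in PyMT-N (422 to 443), for a log2 ratio of -0.29 (-0.38 to -0.20). A UMI of Nfkbia was found in 62.6% and 86.6% of these cells. Cells with at least 3000 UMIs, 480 of 588 in PyMT-M and 1058 of 1065 in PyMT-N, were then thinned to that depth. Among them the shares were 53.8% and 58.0%, with overlapping Clopper-Pearson intervals. In tumor-gated cells the order of the libraries was the opposite, with 219.6 CPM in PyMT-M and 107 CPM in PyMT-N, and Nfkbia was the only member past 2-fold higher there (log2 ratio 1.04, 1.00 to 1.08). Fibroblasts (194 and 118 CPM) and Ptprc+ cells (289.7 and 190 CPM) also had more in PyMT-M, by log2 ratios of 0.72 (0.36 to 1.07) and 0.61 (0.46 to 0.75). Lymphatic Nfkbia was 371 CPM in PyMT-M, from 33 UMIs in 20 cells, and 154 CPM in PyMT-N. Blood endothelium was the single class of the 5 in which Nfkbia was lower in PyMT-M.

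Tnfaip3 encodes A20, the ubiquitin-editing enzyme that shuts down signaling at the receptor. It was sparse, at 13.3 CPM in PyMT-M and 12.5 CPM in PyMT-N blood endothelial cells (log2 ratio 0.09, -0.42 to 0.57). At the depth as deposited it was detected in 6.80% and 10.2% of them. After thinning the order of the shares turned, to 5% (3.23% to 7.35%) in PyMT-M and 2.84% (1.92% to 4.02%) in PyMT-N. The intervals of the thinned shares overlapped. Tumor-gated cells had 4.89 CPM in PyMT-M and 12.9 CPM in PyMT-N, which gave a log2 ratio of -1.39 (-1.54 to -1.25). The highest well-sampled level was in Ptprc+ cells, at 30.1 and 52.9 CPM. Lymphatic cells gave 56.2 CPM in PyMT-M, but from 5 UMIs in 5 cells. An alternative kept cells of 1 gate only and applied a further exclusion, leaving 574 and 994 blood endothelial cells. There the level in PyMT-N fell to 8.40 CPM and the log2 ratio became 0.67 (0.13 to 1.20). The immune check markers Cd74, Tyrobp, Fcer1g, Coro1a and Laptm5 summed to 618 CPM in all PyMT-N blood endothelial cells and 75.5 CPM in PyMT-M. None of the 5 was at 0 in either library, and their part in the Tnfaip3 levels was not tested.

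Bcl3, an atypical IkB protein that works in the nucleus with p50 and p52, was low in every class. Its blood endothelial level was 22.4 CPM in PyMT-M and 28.8 CPM in PyMT-N, with a log2 ratio of -0.36 (-0.74 to -0.003). Tumor-gated cells held 11.3 and 15.0 CPM (log2 ratio -0.41, -0.52 to -0.29). In the other classes its levels ran from 15.7 to 28.2 CPM and the libraries overlapped.

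Birc3 encodes the inhibitor of apoptosis protein cIAP2, which also adds ubiquitin in the signaling complex of the tumor necrosis factor receptor. Ptprc+ cells led by a clear margin in PyMT-N, at 137 CPM (126 to 148), where they held 64.8 CPM (55.3 to 75.5) in PyMT-M, and Birc3 was the 1 member past 2-fold lower there (log2 ratio -1.08, -1.34 to -0.83). The ratio ran from -2.13 to -0.23 over the alternative settings and was -0.52 with cells of 1 gate only. The makeup of the class also differed, as cells with myeloid and no lymphocyte markers were 24.4% of it in PyMT-M and 5.88% in PyMT-N. Blood endothelial cells had 37.0 CPM in PyMT-M and 45.6 CPM in PyMT-N (log2 ratio -0.30, -0.59 to -0.02). In the alternative that kept 574 and 994 of these cells the endothelial levels were 36.4 and 33.9 CPM. The interval of the ratio there (-0.19 to 0.41) included 0. Tumor-gated cells had least, at 11.1 and 14.6 CPM. The endothelial level exceeded the tumor-gated level by log2 ratios of 1.74 (1.46 to 2.01) in PyMT-M and 1.65 (1.50 to 1.78) in PyMT-N.

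Ier3, an immediate-early gene whose product modulates cell survival, had the opposite order of classes, with the tumor-gated cells on top in both libraries. They held 563 CPM in PyMT-M and 329 CPM in PyMT-N, and 95.3% and 87.7% of them had at least 1 UMI. Blood endothelial cells held 171 CPM in PyMT-M (157 to 185) and 102 CPM in PyMT-N (96.7 to 107), which gave a log2 ratio of 0.75 (0.60 to 0.89). Higher levels in PyMT-M were also seen in tumor-gated cells (log2 ratio 0.78, 0.76 to 0.80), fibroblasts (341 and 138 CPM, log2 ratio 1.30) and Ptprc+ cells (505 and 124 CPM, log2 ratio 2.03, 1.88 to 2.18). Lymphatic cells, at 112 and 76.5 CPM, were the class in which the interval (-0.53 to 1.46) included 0. The sums rested on a minority of cells, since the 5% of blood endothelial cells with most Ier3 held 45.8% (PyMT-M) and 46.8% (PyMT-N) of its UMIs.

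Because Ier3 was highest in tumor-gated cells, RNA from those cells was measured in the other classes, with the epithelial gene Wfdc2 as a yardstick. In blood endothelial cells Wfdc2 stood at 7.13% of its tumor-gated level in PyMT-M and at 0.83% in PyMT-N. The PyMT-M share rests on few cells, since 36 of its 51 UMIs lay in 5 of the 92 cycling cells, up to 18 in 1 cell, and the other 496 cells held 6.05 CPM of Wfdc2, against 217 CPM in tumor-gated cells. The same shares of tumor-gated Ier3 would be 40.1 of the 171 CPM in PyMT-M and 2.72 of the 102 CPM in PyMT-N. In the 530 and 935 blood endothelial cells with no UMI of Krt8, Krt18, Rhox5 or Wfdc2 the log2 ratio of Ier3 was 0.83. In Ptprc+ cells of PyMT-M Wfdc2 reached 52.7% of its tumor-gated level, equivalent to 297 of the 505 CPM of Ier3 and 116 of the 289.7 CPM of Nfkbia. Ptprc+ cells with at most 1 UMI of the tumor gate held 294 CPM of Ier3 in PyMT-M and 50.6 CPM in PyMT-N. For PyMT-M fibroblasts, Wfdc2 (36 UMIs) stood at 30.9% of its tumor-gated level, against 4.03% (2 UMIs) for those of PyMT-N. The PyMT-M share would be 174 of the 341 CPM of Ier3 and 67.8 of the 194 CPM of Nfkbia. Fibroblasts that met a further gate supplied 40.4% of the UMI total of their class for PyMT-M, but 14.5% for PyMT-N. Over the alternative settings the fibroblast log2 ratio ran from 0.95 to 1.77 for Ier3 and 0.52 to 0.82 for Nfkbia. The part of tumor RNA in these levels was not tested further.

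**Figure D2:**
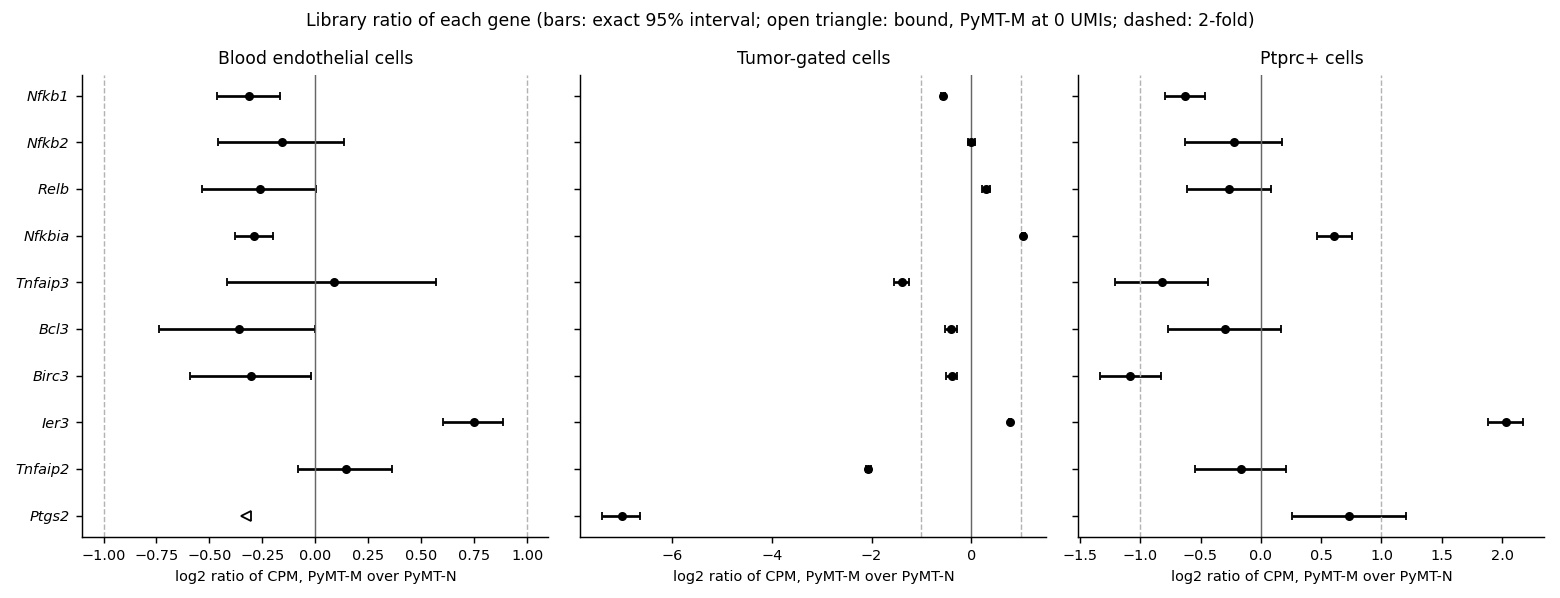
Log2 ratio of CPM, PyMT-M over PyMT-N, for each gene (horizontal axes differ between panels) in blood endothelial, tumor-gated and Ptprc+ cells. Points are ratios of 2 libraries, bars are exact 95% intervals, dashed lines mark 2-fold, and the open triangle is the bound for Ptgs2 where PyMT-M had 0 UMIs. In blood endothelial cells no member passed 2-fold, and in tumor-gated cells Ptgs2 lay at -7.00 and Tnfaip2 at -2.07.

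Tnfaip2, a gene induced by tumor necrosis factor and first described in endothelial cells, differed little between libraries there. It stood at 64.3 CPM in PyMT-M and 58.2 CPM in PyMT-N blood endothelium (log2 ratio 0.14, -0.08 to 0.36). The tumor-gated cells differed widely, with 37.1 CPM in PyMT-M and 155 CPM in PyMT-N (log2 ratio -2.07, -2.11 to -2.02), and 49.6% and 83.2% of cells with a UMI. Thinned to 3000 UMIs, those shares were 10.9% and 33.2%. Its rank therefore turned between libraries, the endothelial level being above the tumor-gated level in PyMT-M (log2 ratio 0.79, 0.59 to 0.99) and below it in PyMT-N (-1.41, -1.51 to -1.31).

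Ptgs2 encodes cyclooxygenase-2, the inducible enzyme that turns arachidonic acid into the precursor of prostaglandins. In PyMT-N tumor-gated cells 4576 UMIs were counted (60.6 CPM, 58.8 to 62.3), with up to 54 in 1 cell. PyMT-M tumor-gated cells had 57 UMIs (0.47 CPM, 0.36 to 0.61) and never more than 2 in 1 cell. A UMI was found in 40.1% of the cells in PyMT-N and 1.04% in PyMT-M, or 13.2% and 0.12% after thinning. The log2 ratio was -7.00 (-7.41 to -6.63), and across the alternative settings it ran from -7.24 to -6.04. No other member differed as much in any class.

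Few UMIs of Ptgs2 were found in blood endothelial cells. None of the 588 cells in PyMT-M had a UMI, which sets the floor of 3 counts at 0.91 CPM. It allows up to 0.63% of cells with a UMI, a limit on detection at this depth and not on cells that express the gene. In PyMT-N 17 UMIs were found in 16 of 1065 cells, or 1.50% (0.86% to 2.43%), at 1.14 CPM. On the Wfdc2 scale 7.47 of those 17 UMIs would be carried over from tumor-gated cells, and after thinning 0.28% of cells had a UMI. The yardstick itself rests on 4 UMIs there, and no endothelial expression of Ptgs2 is read from these counts.

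Ptgs2 was also counted in Ptprc+ cells and fibroblasts. Ptprc+ cells had 30.1 CPM in PyMT-M and 18.1 CPM in PyMT-N (log2 ratio 0.73, 0.26 to 1.20). The transcripts were concentrated, since 92.2% and 91.2% of them lay in the top 5% of cells. Among PyMT-M cells with myeloid markers and no lymphocyte marker, 24 of 119 had a UMI and the level was 150 CPM, whereas none of 245 cells with lymphocyte markers had one. In PyMT-N, 2 of 21 such myeloid-marker cells had a UMI (28.2 CPM), and 7 of 160 lymphocyte-marker cells did (12.6 CPM). The other 176 PyMT-N cells were in neither subset, and 19 cells of the class were also tumor-gated. On the Wfdc2 scale tumor-gated RNA would give 26.2 of the 80 Ptprc+ UMIs in PyMT-N and 0.64 of 77 in PyMT-M. For PyMT-N lymphatic cells it would give 20.55 UMIs, where 19 were counted in 9 of 207 cells. The yardstick there rests on 11 UMIs of Wfdc2 in 3 cells. The part of tumor RNA in these counts was not tested. The Ptprc+ ratio is not firm, because it ran from -3.12, with cells within 2-fold of the median gene number, to 2.83, with cells thinned. Fibroblasts had 20.5 CPM in PyMT-M, from 11 UMIs in 4 of 58 cells, and 30.1 CPM in PyMT-N, from 46 UMIs in 19 of 63 cells. The interval of the log2 ratio (-1.65 to 0.42) included 0, and 1 PyMT-M cell held 8 of the UMIs. Median depth was 7639 UMIs per fibroblast in PyMT-M and 23413 in PyMT-N. After thinning the shares with a UMI were 5.88% (1.23% to 16.2%) and 11.3% (4.66% to 21.9%).

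Counted over all members, the tumor-gated class had 1 of 10 past 2-fold higher in PyMT-M (Nfkbia) and 3 past 2-fold lower (Tnfaip3, Tnfaip2 and Ptgs2), where 21.5% of 16966 genes were 2-fold higher and 27.6% were 2-fold lower. Those shares are near the background of a class in which many genes differ between the libraries. The members' median log2 ratio was -0.40, and -0.13 over all genes tested. In the Ptprc+ class 1 of 10 was higher (Ier3) and 1 lower (Birc3), against 11% and 15.6% of genes. The fibroblast class had 1 of 10 higher (Ier3) and none lower, against 8.79% and 12.5%. In the lymphatic class 3 of 9 were higher (Nfkbia, Tnfaip3 and Birc3) and none lower, against 13.7% and 12.2%, with only 20 cells behind the PyMT-M values. The 13 immediate-early and heat-shock genes described below summed to 3079 CPM in PyMT-M and 1398 CPM in PyMT-N lymphatic cells. Their part in these values was not tested.

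Set against tumor-gated cells of the same library, blood endothelial cells of PyMT-M had 2 of 9 members past 2-fold higher (Tnfaip3 and Birc3) and 1 lower (Ier3), where 27.4% of genes were higher and 16.7% lower. In PyMT-N 2 of 10 were higher (Nfkbia and Birc3) and 3 lower (Ier3, Ptgs2 and Tnfaip2), against 23.1% and 16.9%. Birc3 and Ier3 were past 2-fold in the same direction in both libraries. Nfkbia was above the tumor-gated level in both, by log2 ratios of 0.69 (0.60 to 0.77) in PyMT-M and 2.02 (1.97 to 2.07) in PyMT-N. Tnfaip3 exceeded it by 1.45 (0.97 to 1.89) in PyMT-M and was level with it in PyMT-N, at -0.04 (-0.27 to 0.19).

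Immediate-early and heat-shock genes, which tissue dissociation induces, moved with some of these results. The 13 such genes summed to 1722 CPM in PyMT-M and 1508 CPM in PyMT-N blood endothelial cells, but to 613 and 2213 CPM in tumor-gated cells. Its genes did not move together there: Jun was far higher in PyMT-M (252.5 against 0.81 CPM), Dusp1 (56.1 and 34.0 CPM) and Atf3 (26.4 and 21.4 CPM) were also higher, and the other 10 were lower, among them Fos (4.25 and 353 CPM), Egr1 (1.62 and 243 CPM) and Hspa1a (0.31 and 107 CPM). A summed share of the list therefore weighs different genes in each library. The comparison was therefore repeated in cells on either side of the pooled median share of those genes. Among tumor-gated cells at or under the median (3554 and 550 cells), Nfkbia stood at 150 CPM in PyMT-M and 32.4 CPM in PyMT-N, so that the log2 ratio was 2.21 (2.07 to 2.36). Ier3 stood at 469 and 126 CPM there, a ratio of 1.90 (1.83 to 1.97). Over the median (1348 and 2756 cells) the ratios were 1.75 for Nfkbia and 1.15 for Ier3. The list itself summed to 439 and 481 CPM at or under the median, but to 1079 and 2542 CPM over it, so the libraries were alike in the list's total only on the lower side. Both genes differed more between libraries on either side of the split than in the whole class.

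For Tnfaip3 the reverse held. Its tumor-gated ratio of -1.39 became -0.14 (-0.64 to 0.39) at or under the median and -0.51 (-0.69 to -0.33) over it. Ptgs2 kept a log2 ratio of -6.35 on both sides, with 27.8 CPM under and 66.8 CPM over the median in PyMT-N. Tnfaip2 kept -2.07 and -1.83. In blood endothelial cells Ier3 was higher in PyMT-M on both sides, by 0.90 (0.63 to 1.17) and 0.66 (0.49 to 0.82), and Nfkbia lower, by -0.55 and -0.19. The part of dissociation in these levels was not tested further.

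**Figure D3:**
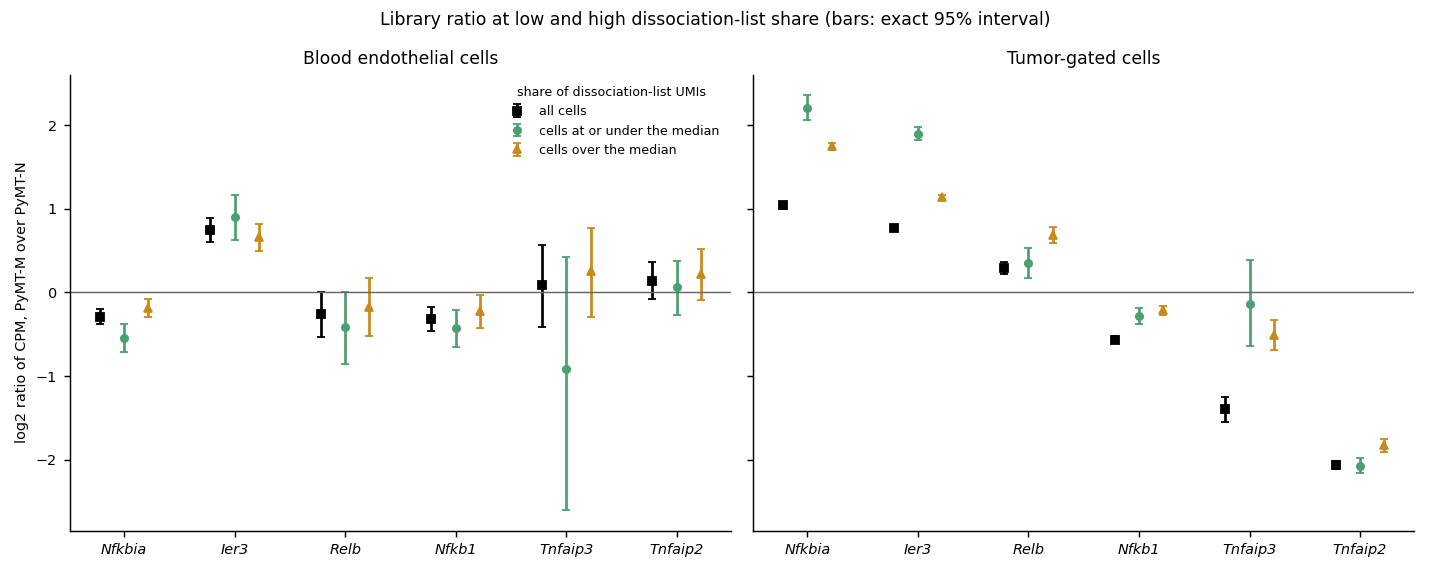
Log2 ratio of CPM, PyMT-M over PyMT-N, for 6 genes in blood endothelial cells (left) and tumor-gated cells (right): all cells (black), cells at or under the pooled median share of dissociation-list UMIs (green) and cells over it (orange), with exact 95% intervals. In tumor-gated cells Nfkbia lies at 1.04 in all cells and at 2.21 and 1.75 once cells are split, and Tnfaip3 moves from -1.39 to -0.14 and -0.51.

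The libraries also differed in cycling. The cycling gate, at least 3 UMIs of Mki67, Top2a and Birc5, held 75.3% of PyMT-M tumor-gated cells and 4.72% of those in PyMT-N. Among tumor-gated cells outside that gate Ptgs2 stood at 0.92 CPM in PyMT-M and 60.6 CPM in PyMT-N. Nfkbia stood at 283 and 103 CPM there, and Tnfaip3 at 7.49 and 11.7 CPM. Within PyMT-M the cycling cells had less Nfkbia (204 against 283 CPM), while within PyMT-N they had more (150 against 103 CPM).

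Levels also differed between subsets of blood endothelial cells, each set by at least 3 UMIs of its markers. These gates overlap and are ranges, not cell types. They count UMIs as deposited, so the share of cells inside a gate depends on depth. Nfkbia and Ier3 were lower in cycling cells of both libraries: Nfkbia stood at 235 CPM in cycling and 393 CPM in other PyMT-M cells, and at 213 and 471 CPM in PyMT-N. Ier3 stood at 118 and 188 CPM in PyMT-M, and at 58.2 and 109 CPM in PyMT-N. The dissociation list followed the same order, with 1246 CPM in cycling against 1878 CPM in other PyMT-M cells, and 1117 against 1577 CPM in PyMT-N. Among the other members, Nfkb1, Relb and Birc3 were lower in cycling cells of PyMT-N beyond counting error and Tnfaip3 was higher (18.4 against 11.5 CPM), and in PyMT-M Nfkb2 and Tnfaip2 were lower. The immune check markers summed to 1026 CPM in cycling and 546 CPM in other cells of PyMT-N, and their part in the Tnfaip3 level was not tested. Whether those contrasts differed between the libraries was not tested.

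Tip-marker cells (Esm1, Apln, Angpt2 and Pgf, genes of sprouting vessel ends) were 47.6% of blood endothelial cells in PyMT-M and 52.9% in PyMT-N. They had more of both Nfkbia and Ier3. Their Ier3 was 215 CPM against 113 CPM in other cells in PyMT-M, and 129.7 against 63.2 CPM in PyMT-N, log2 ratios of 0.93 (0.66 to 1.21) and 1.04 (0.87 to 1.21). Their Nfkbia was 409 against 281 CPM in PyMT-M, and 498 against 342 CPM in PyMT-N, both log2 ratios being 0.54. The dissociation list was close to level across this gate, with 1706 CPM inside against 1742 CPM outside in PyMT-M, and 1510 against 1505 CPM in PyMT-N. Other markers were not level. Wfdc2 stood at 24.5 CPM inside and 3.52 CPM outside the gate in PyMT-M, and the 5 immune check markers summed to 32.0 against 133 CPM there and to 72.6 against 1371 CPM in PyMT-N. Nfkb1 was lower in tip-marker cells, by log2 ratios of -0.30 (-0.57 to -0.02) and -0.28 (-0.39 to -0.16), and so was Bcl3, by -1.03 (-1.76 to -0.33) and -0.44 (-0.72 to -0.16). In PyMT-N Birc3 (-0.93, -1.16 to -0.71) and Tnfaip3 (-1.07, -1.52 to -0.64) were lower as well, whereas in PyMT-M both intervals spanned 0. The part of immune or tumor RNA in these contrasts was not tested.

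Venous-marker cells (Ackr1, Nr2f2 and Vwf) were 27.4% of blood endothelial cells in PyMT-M and 82.35% in PyMT-N. Median depth was 5206 and 12696 UMIs per cell, and these shares are not a measure of venous cells. The paper reported venous cells enriched in PyMT-M, and Vwf higher in endothelial cells of PyMT-N. Venous-marker cells also had more Nfkbia, by log2 ratios of 0.36 (0.18 to 0.53) in PyMT-M and 1.10 (0.97 to 1.23) in PyMT-N. Their Ier3 was higher too, by 0.50 and 0.84. Birc3 and Tnfaip3 differed across this gate in PyMT-N, where the 188 cells outside it had 104.8 CPM of Birc3 against 34.2 CPM inside, and 32.9 against 8.64 CPM of Tnfaip3. The 5 immune check markers summed to 3431 CPM in those 188 cells and 77.6 CPM in the venous-marker cells. The blood endothelial check markers summed to 2586 and 4650 CPM. In PyMT-M, where the immune sums were 92.6 and 34.8 CPM, neither Birc3 nor Tnfaip3 differed across the gate. In PyMT-N Nfkb1 (-0.32), Nfkb2 (-0.38) and Ptgs2 (10 UMIs inside, 7 outside) were also lower inside, and Tnfaip2 (0.50) was higher. In PyMT-M Relb was higher inside (0.54, 0.01 to 1.055). Arterial-marker cells (Gja4, Gja5, Sox17, Sema3g and Bmx) had 626 CPM of Nfkbia against 353 CPM in PyMT-N, and 160.5 against 77.5 CPM of Ier3, with more of the dissociation list as well (1844 against 1369 CPM). The immune check markers summed to 109.9 CPM inside and 827.5 CPM outside the arterial-marker gate in PyMT-N. In the 67 arterial-marker cells of PyMT-M the intervals of Nfkbia and Ier3 spanned 0. The part of immune RNA in the venous-marker and arterial-marker contrasts was not tested.

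**Figure D4:**
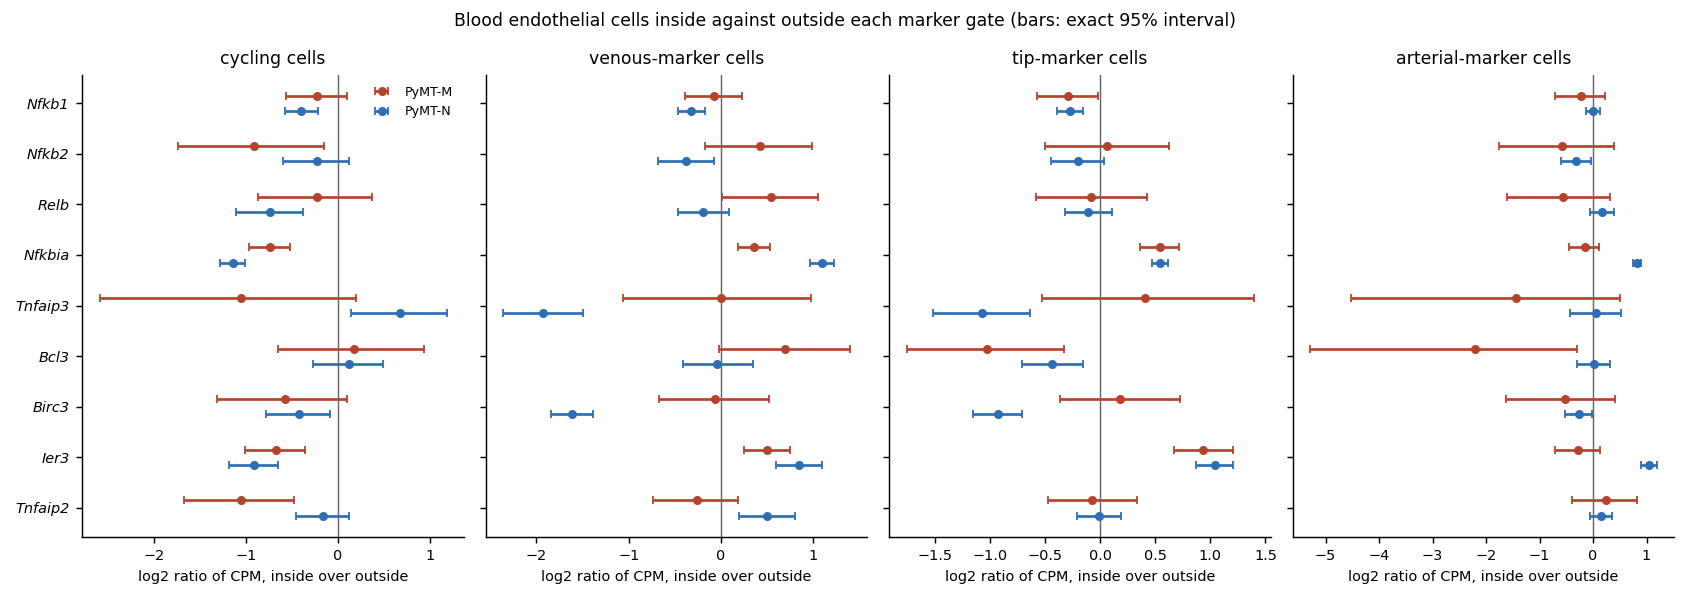
Log2 ratio of CPM in blood endothelial cells inside over outside each marker gate, for 9 genes in PyMT-M (red) and PyMT-N (blue), with exact 95% intervals. Horizontal scales differ between panels. Nfkbia and Ier3 lie left of 0 in cycling cells and right of 0 in tip-marker and venous-marker cells in both libraries.

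The members were also followed cell by cell after thinning. Of PyMT-N tumor-gated cells, 435 had a UMI of Ptgs2 and 2869 had none. Those with Ptgs2 held 166 CPM of Nfkbia against 86.1 CPM (log2 ratio 0.95, 0.72 to 1.17), 20.7 against 11.04 CPM of Tnfaip3 (0.91, 0.23 to 1.54) and 474 against 323 CPM of Ier3 (0.56, 0.43 to 0.68). The intervals of Nfkb2, Relb, Bcl3 and Tnfaip2 spanned 0, and Nfkb1 and Birc3 are not given for this split. The dissociation list was likewise higher in the cells with Ptgs2, at 3311 against 2046 CPM.

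Over the 9 sums of at least 50 cells, Birc3 and Tnfaip3 had the most similar pattern among the members, with a Pearson r of 0.90 on log2(CPM + 1), followed by Birc3 and Nfkb1 (0.83) and Bcl3 and Nfkb1 (0.83). Relb and Tnfaip2 were the most opposed pair, at -0.72. The sums share libraries and depth, so these values are descriptions. Among 13673 ranked genes the one most like Ptgs2 was Pla2g4a (r = 0.95), which releases arachidonic acid from membranes, followed by Lsp1 (0.95) and Basp1 (0.94). Over 9 points an r of this size was common, as the other members show. For 7 of the other members the most similar genes were Gm56560, Nfyc and 9130004C02Rik for Nfkb1, Cnppd1, Wdr5b and Abca7 for Nfkb2, Mcf2l, Sez6l2 and Sipa1l2 for Nfkbia, Vps18, Serpini1 and Rabgef1 for Tnfaip3, Trappc8, Camta2 and Selenop for Bcl3, Slc48a1, Rnf181 and Polr1g for Ier3, and E230034D01Rik, Slc35a1 and Sfxn3 for Tnfaip2, with r between 0.88 and 0.99.

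Around the members, 78 other genes of the pathway were listed by role. The lists were also made with earlier results of these data known, so their counts are descriptions. In blood endothelial cells 65 of them were tested, of which 10 were past 2-fold higher in PyMT-M and 7 lower, with a median log2 ratio of 0.06. Among upstream genes, 1 of 8 receptors was lower (Cd40, 14.25 and 44.5 CPM, log2 ratio -1.64, -2.10 to -1.21). None of 12 adaptors and kinases, 2 further subunits or 11 further inhibitors passed 2-fold. Others in these lists differed by less than 2-fold with intervals off 0, in both directions. Over all genes tested in this class, 5.33% were higher and 8.93% lower. The adhesion and chemokine targets had 9 of 14 higher, 2 lower and a median of 1.52. Markers of other stromal cells moved with the library, since 3 pericyte markers summed to 83.1 CPM in PyMT-M and 3.69 CPM in PyMT-N blood endothelial cells (none at 0) and 5 fibroblast markers to 32.2 and 4.29 CPM (1 at 0 in each), and their part in these targets was not tested. The highest were the monocyte chemokine Ccl2 (117 CPM in PyMT-M and 10.8 CPM in PyMT-N, log2 ratio 3.44, 3.17 to 3.71), the macrophage growth factor Csf1 (30.6 and 6.17 CPM, 2.31) and the membrane-bound chemokine Cx3cl1 (29.1 and 5.97 CPM, 2.29). Tumor-gated cells of PyMT-M held 494 CPM of Ccl2, and on the Wfdc2 scale 35.2 of the 117 endothelial CPM. The lowest were Ltb (3.03 and 27.8 CPM), Bcl2a1b (3.34 and 21.1 CPM) and Bcl2a1d (0.91 and 4.63 CPM), genes typical of leukocytes. In the alternative with cells of 1 gate only and a further exclusion (574 and 994 cells) Ltb and Bcl2a1b stood at 0.45 and 0.37 CPM in PyMT-N. There 8 of 10 adhesion and chemokine targets tested were higher and none lower. The Bcl2a1 genes are near-identical copies whose reads may be split.

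In tumor-gated cells 74 of the 78 were tested, with 18 higher in PyMT-M and 29 lower, where the shares over all genes were 21.5% and 27.6%. The prostaglandin genes around Ptgs2 had 4 of 13 higher and 7 lower, with a median log2 ratio of -2.14. The prostaglandin transporter Slco2a1 stood at 0.73 CPM in PyMT-M and 417 CPM in PyMT-N (log2 ratio -9.16, -9.48 to -8.86). Ptger2, a receptor for prostaglandin E, had 1 UMI in PyMT-M and 576 in PyMT-N (-9.85, -15.15 to -7.36). The cytokine gene Lif followed at 0.18 and 11.4 CPM. At the other end were the chemokines Ccl7 (95.2 and 0.03 CPM, the latter from 2 UMIs, log2 ratio 11.81, 9.96 to 14.86) and Ccl2 (494 and 2.14 CPM, 7.85) and the receptor Cd40 (20.02 and 0.26 CPM, 6.24).

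**Figure D5:**
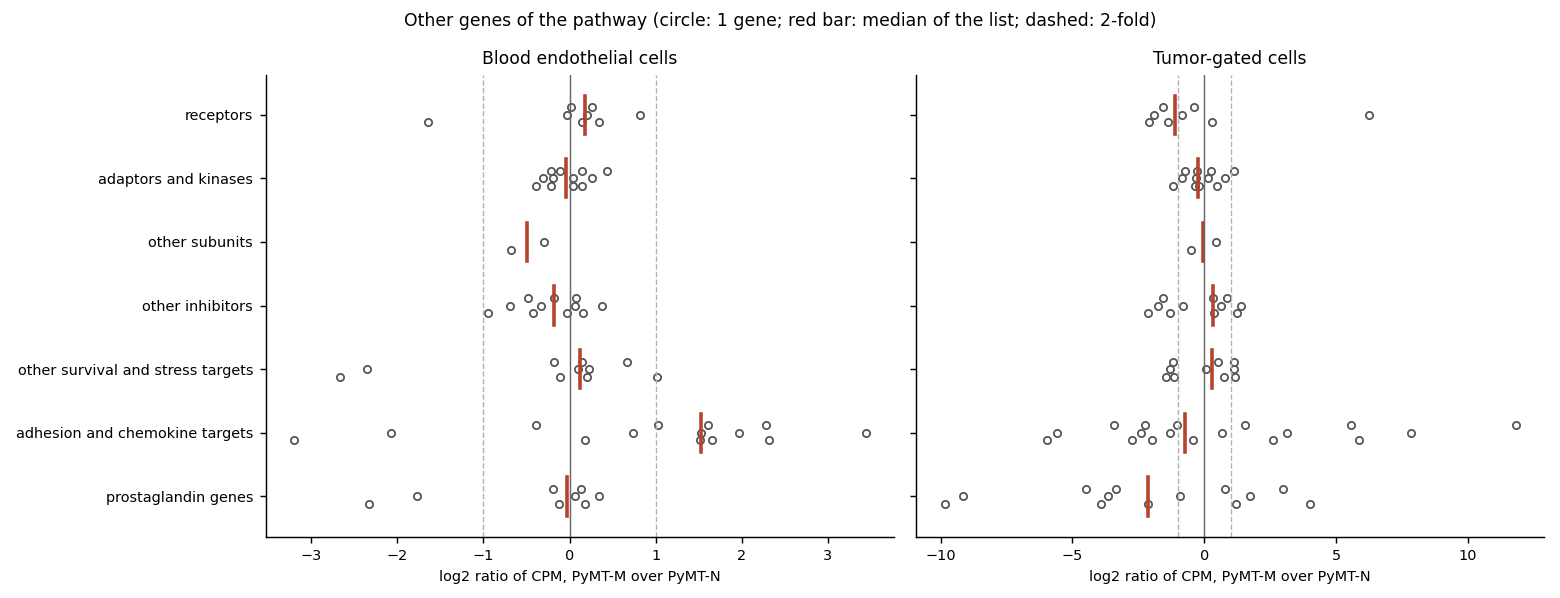
Log2 ratio of CPM, PyMT-M over PyMT-N, of the other pathway genes by role in blood endothelial (left) and tumor-gated (right) cells, on horizontal scales that differ. Each circle is 1 gene with at least 20 UMIs, red bars are list medians and dashed lines mark 2-fold. In blood endothelial cells the adhesion and chemokine targets centre on 1.52, and in tumor-gated cells the prostaglandin genes centre on -2.14.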

How the data were processed

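Mouse tumor cells sorted as endothelial were profiled with the 10x 3′ v3.1 chemistry. For the 2 libraries the authors deposited counts of UMIs, gene by barcode. The submitters' processing notes name Cell Ranger 8.0.0 and mm39, with no normalization of these counts. Cells with at least 200 genes and at most 10% mitochondrial UMIs were kept and placed in classes by marker gates: blood endothelial, at least 5 UMIs of Pecam1, Flt1, Emcn and Kdr, at most 1 of Krt8, Krt18 and Rhox5, and 0 of Prox1; lymphatic, at least 3 of Prox1, Mmrn1 and Reln; tumor-gated, at least 3 of Krt8, Krt18 and Rhox5 and 0 of Pecam1 and Flt1; fibroblast, Col3a1 at 3000 CPM or more; Ptprc+, at least 1 UMI. Gates may overlap. No doublet caller was run, and an alternative kept cells of 1 gate only. In blood endothelium that alternative kept 574 and 994 cells. This is fewer than the 580 and 1007 that met only that gate, so a further exclusion applied there.

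Counts were summed per class and library as CPM, with exact 95% Poisson intervals. Ratios have exact conditional binomial intervals and shares have Clopper-Pearson intervals. These cover counting error only. A gene with at least 20 UMIs over both sums was tested against a 2-fold limit. A sum of 0 was set against a floor of 3 counts. For shares, cells were thinned to 3000 UMIs, which left out 108 and 7 blood endothelial and 338 and 47 Ptprc+ cells. No p-value was computed, because each condition is 1 pooled library. Dissociation genes were Fos, Fosb, Jun, Junb, Egr1, Atf3, Ier2, Dusp1, Zfp36, Btg2, Nr4a1, Hspa1a and Hspa1b.

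The text names all 10 members, the 3 highest and 3 lowest pathway genes in each of the blood endothelial and tumor-gated classes, the 3 genes most like each member among those with at least 200 UMIs, and cell type markers. The members and lists were chosen with earlier results of these data known. The alternatives that restrict Ptprc+ cells by tumor-gate UMIs, tumor-gated cells by cycling or dissociation genes, and blood endothelial cells by Wfdc2 were chosen after seeing the data. Analyses used scipy 1.17.1, pandas 2.3.3, numpy 2.4.6 and matplotlib 3.10.9 in Python 3.11.15, and the interval code was tested on simulated data. Promoter windows came from RefSeq on GRCm38.p6, a build other than that of the counts, and were matched by symbol. The genes most like Relb and Birc3 are not reported here.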

Additional observations from a re-analysis of the deposited data

Results flagged for a closer look

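For 4 members the libraries differed in opposite directions in different cell classes, each beyond counting error, and with 1 library per condition those differences between classes were not tested. The log2 ratio of Nfkbia, PyMT-M over PyMT-N, was 1.26 in lymphatic, 1.04 in tumor-gated, 0.72 in fibroblast and 0.61 in Ptprc+ cells, but -0.29 in blood endothelial cells. That of Tnfaip3 was 2.73 in lymphatic cells, from 5 UMIs in PyMT-M, and -1.39 in tumor-gated and -0.82 in Ptprc+ cells. Birc3 stood at 1.53 in lymphatic cells, from 6 UMIs in PyMT-M, at -0.30 in blood endothelial, -0.40 in tumor-gated and -1.08 in Ptprc+ cells. Its blood endothelial ratio ran from -0.61 to 0.12 over the alternative settings and kept its sign in 13 of 14. Ptgs2 stood at 0.73 in Ptprc+ cells and -7.00 in tumor-gated cells.

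The lymphatic values rest on 20 cells of PyMT-M, where the dissociation list summed to 3079 CPM, against 1398 CPM in PyMT-N. Cells that also met another gate held 43.1% (PyMT-M) and 42.5% (PyMT-N) of the Ptprc+ UMIs. For fibroblasts those shares were 40.4% and 14.5%. With cells of 1 gate only the Ptprc+ log2 ratio of Ptgs2 was 1.29 and that of Birc3 was -0.52. With cells within 2-fold of the median gene number that of Ptgs2 turned to -3.12, so that the classes no longer differed in direction, and that of Birc3 was -2.13.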

How the results depend on the processing

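No ratio that was past 2-fold changed sign under any alternative run. No paired analysis was possible because each condition has 1 library and no test was run. In blood endothelial cells the counts of members past 2-fold stayed at 0 in each direction under all 14 alternatives, and the counts of blood endothelial against tumor-gated cells stayed within 1.5 times in both libraries. Elsewhere counts moved. The lymphatic count of 3 higher became 5 with cells within 2-fold of the median gene number, with cells of 1 gate only and without the 5% of cells with most UMIs, and 1 member was lower after thinning, where none had been. The fibroblast count of 1 higher became 2 without the top 5% of cells and 0 as a mean over cells. The Ptprc+ count of 1 higher became 2 with cells of 1 gate only, without the top 5% and as a mean over cells, and 3 after thinning and with at most 1 tumor-gate UMI. The Ptprc+ count of 1 lower became 3 within 2-fold of the median gene number, and 0 with cells of 1 gate only, without the top 5%, centred on the median gene, as a mean over cells and with at most 1 tumor-gate UMI. The tumor-gated count of 1 higher became 2 outside the cycling gate and 2 at a low dissociation share, where Ier3 joined Nfkbia. The causes were not tested. Depth limits Tnfaip3, Bcl3 and Ptgs2 in endothelium and every lymphatic value of PyMT-M.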

Other observations

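In PyMT-M, 12 Ptprc+ cells with a UMI of Ptgs2 after thinning and 138 without one were compared. The cells with Ptgs2 had more Tnfaip3 (log2 ratio 2.79), Ier3 (1.97) and Nfkbia (1.97), and also more of the dissociation list (1.52). The number of cells is small, and the comparison is a description of 1 library.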
